A study of Mus musculus with 3 samples.

Results

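The genes of the major histocompatibility complex (MHC) and of antigen presentation were followed in 3 RNA sequencing libraries of normal mouse liver. They comprised every protein-coding gene of the GENCODE M21 annotation whose symbol starts with H2-, together with B2m, Tap1, Tap2, Tapbp, Nlrc5, Ciita and Cd74, which made 41 genes. Events carrying the identifier of 1 of these genes numbered 138, 144 and 154 in replicates 1, 2 and 3, of 71716, 74243 and 74236 events in all. All 3 libraries were labelled wild type, healthy, male, C57BL/6 and liver, and they form 1 group with no treatment. The series concerns driver genes of hepatocellular carcinoma, a liver cancer, and tumours were not analysed here. Separate animals are not stated in the labels, and the spread between libraries may be technical.

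The tables held FPKM (fragments relative to transcript length and sequencing depth) for first exons, last exons and splicing events, and events at 0 were not listed. Read counts were not given, so depth is unknown and no counting interval could be set. The libraries went against their label of male: Xist, the RNA of the inactive X chromosome, was at 65.7, 34.2 and 46.4 FPKM in replicates 1, 2 and 3, and Ddx3y, Uty, Kdm5d and Eif2s3y of the Y chromosome were listed in none of them. The summed level of 5 hepatocyte markers was between 34703 and 40220 FPKM, as the tissue label would have it. Every result below rests on these same libraries.

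MHC class I molecules consist of a heavy chain and beta-2 microglobulin, sit on nearly all nucleated cells and show peptides from inside the cell to CD8 T cells. The peptides are cut by proteasomes, carried into the endoplasmic reticulum by the TAP transporter and loaded with the help of tapasin. MHC class II molecules are alpha and beta chain pairs that show peptides from endosomes to CD4 T cells and are made mainly by B cells, dendritic cells and macrophages. In liver, Kupffer cells and sinusoidal endothelial cells can also present antigen.

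Of the 41 genes, 24 had events under their own identifier. Another 6 were listed only under the identifier of a neighbour: H2-D1 and H2-Q1 under H2-Q10, H2-T22 under H2-T10, H2-DMb2 under H2-DMb1, H2-Ke6 under Slc39a7 and Cd74 under Mir5107. First and last exons were therefore given to genes by position, and the level of a gene was taken as the largest of its summed first exons, its summed last exons and, where the assembled locus held 1 gene, its largest internal event. Under this definition 30 genes had a value, 26 of them in all 3 libraries, and 24 had a mean of at least 1 FPKM. Of all 21951 protein-coding genes of the annotation 42.1% reached that mean, and of the 17474 with several annotated transcripts 49.7% did. The other 11 had no first or last exon placed on them: H2-T3, H2-M1, H2-M5, H2-M9, H2-M11 and the 6 genes of the H2-M10 group. Of these 11, 6 have 1 annotated transcript and 5 have several. Over all protein-coding genes those with 1 transcript had a value in 19.9% of cases, against 64.1% of those with several. The part of listing and of expression in this gap was not tested, and an unlisted gene cannot be called silent.

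RefSeq (GRCm38.p6) gave promoters for 34 of the 41 genes, and they are shown for some of the members discussed below. Of the pairs compared below only H2-K1 and H2-Aa are shown. The windows of H2-D1 and Tap1 overlapped annotated exons, and H2-Ab1, Tap2, Nlrc5 and Ciita had no RefSeq window. The sequences below are the 200 bases before the RefSeq start, 5′ to 3′ on the gene's strand, or 199 for B2m, where the last base lies in an annotated exon. Capitals mark matches, on either strand, to GGGNNTTCC (the core of the enhancer A element bound by NF-kB), GAANNGAAA (the core of an interferon response element), TGACG (the core of a cyclic AMP response element, as in the X2 box of MHC promoters) and CCAAT (the Y box bound by NF-Y), and adjoining capitals are overlapping matches.
B2m, chr2:122147487-122147685, plus strand: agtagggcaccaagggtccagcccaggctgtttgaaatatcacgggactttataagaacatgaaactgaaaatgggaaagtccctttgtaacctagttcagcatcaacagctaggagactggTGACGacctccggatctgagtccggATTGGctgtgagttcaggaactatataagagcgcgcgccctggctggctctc
H2-K1, chr17:34000348-34000547, minus strand: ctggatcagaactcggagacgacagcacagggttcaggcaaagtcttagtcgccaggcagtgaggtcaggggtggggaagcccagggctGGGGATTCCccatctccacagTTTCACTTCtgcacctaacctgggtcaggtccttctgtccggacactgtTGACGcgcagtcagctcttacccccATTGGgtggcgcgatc
H2-Q6, chr17:35424650-35424849, plus strand: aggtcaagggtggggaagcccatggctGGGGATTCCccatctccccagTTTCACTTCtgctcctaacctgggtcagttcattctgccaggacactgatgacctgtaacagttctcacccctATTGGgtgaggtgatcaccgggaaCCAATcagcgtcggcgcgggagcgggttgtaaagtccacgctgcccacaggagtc
H2-Q7, chr17:35438955-35439154, plus strand: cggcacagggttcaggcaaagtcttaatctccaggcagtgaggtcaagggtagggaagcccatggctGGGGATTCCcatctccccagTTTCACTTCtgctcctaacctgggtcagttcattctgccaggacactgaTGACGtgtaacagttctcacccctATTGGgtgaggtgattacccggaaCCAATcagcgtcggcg
H2-Q10, chr17:35469889-35470088, plus strand: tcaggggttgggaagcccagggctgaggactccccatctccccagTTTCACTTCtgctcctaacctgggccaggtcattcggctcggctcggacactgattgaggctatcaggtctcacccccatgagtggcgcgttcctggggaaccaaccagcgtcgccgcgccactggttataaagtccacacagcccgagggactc
H2-Aa, chr17:34287824-34288023, minus strand: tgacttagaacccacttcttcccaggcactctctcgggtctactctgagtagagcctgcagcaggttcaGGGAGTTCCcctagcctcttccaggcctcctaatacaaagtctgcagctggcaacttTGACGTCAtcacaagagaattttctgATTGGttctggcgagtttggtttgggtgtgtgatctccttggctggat
The enhancer A letters occurred in 4.13% of 32817 promoter windows and in those of 8 of the 34 members: H2-K1, H2-D1, H2-Q4, H2-Q6, H2-Q7, H2-M2, H2-Aa and H2-Oa. The interferon response letters occurred in 4.99% of all windows and in those of 8 members, all of them class I heavy chain genes. Their spacing was fixed, so the similar letters gaaactgaaa in the B2m promoter were not matched. TGACG occurred in 15.6% of all windows and in those of 13 members. CCAAT occurred in 29.3% of all windows and in those of 30 members. Among them were all 8 class II chain, exchange and inhibitor genes with a promoter. For H2-DMa the matching window belonged to a RefSeq start 9664 bases upstream of the first exon listed here, and its other window had no match. The H2-D1 window lay wholly inside its main listed first exon, as its RefSeq start lies downstream of the listed start. The enhancer A match of H2-Oa and the CCAAT match of H2-DMb1 likewise lay inside their listed first exons. Windows of some other members, H2-Q4 among them, also overlapped annotated exons. H2-Q10 matched the interferon response letters and none of the other 3 patterns, whereas H2-K1 matched all 4. These matches describe letters within 200 bases and do not show binding, and a promoter without a match may still hold such an element.

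B2m, the light chain shared by all class I molecules (ENSMUSG00000060802, chr2:122147686-122153083), had the highest level of the 41 genes. It stood at 2069, 1826 and 1785 FPKM in replicates 1, 2 and 3 (1893 ± 153, SD, n = 3), rank 20 of 12091 protein-coding genes with a value. Replicate 1 was highest and the others lay close together. Its first and last exon carried equal FPKM, so a single transcript form was listed.

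H2-K1 and H2-D1 encode the classical class I heavy chains of the C57BL/6 haplotype, H-2b. H2-K1 (ENSMUSG00000061232, chr17:33996017-34000347, minus strand) had 685, 530 and 583 FPKM (599 ± 78.7, n = 3) and rank 63. H2-D1 (ENSMUSG00000073411, chr17:35262730-35267499) had 410, 250 and 290 FPKM (317 ± 83.6, n = 3) and rank 129. H2-K1 was above H2-D1 in each library, and both were highest in replicate 1 and lowest in replicate 2. The difference, H2-K1 minus H2-D1 on the log2(FPKM + 1) scale, was 0.74, 1.08 and 1.00 in replicates 1, 2 and 3 (0.94 ± 0.18), larger than its spread. With 1 group and 3 libraries a two-sided exact sign test of such a difference cannot give a p below 0.25, so no p-values are given. Tissue was sequenced whole, so fewer cells of a type and less RNA per cell cannot be told apart here or below.

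**Figure D1:**
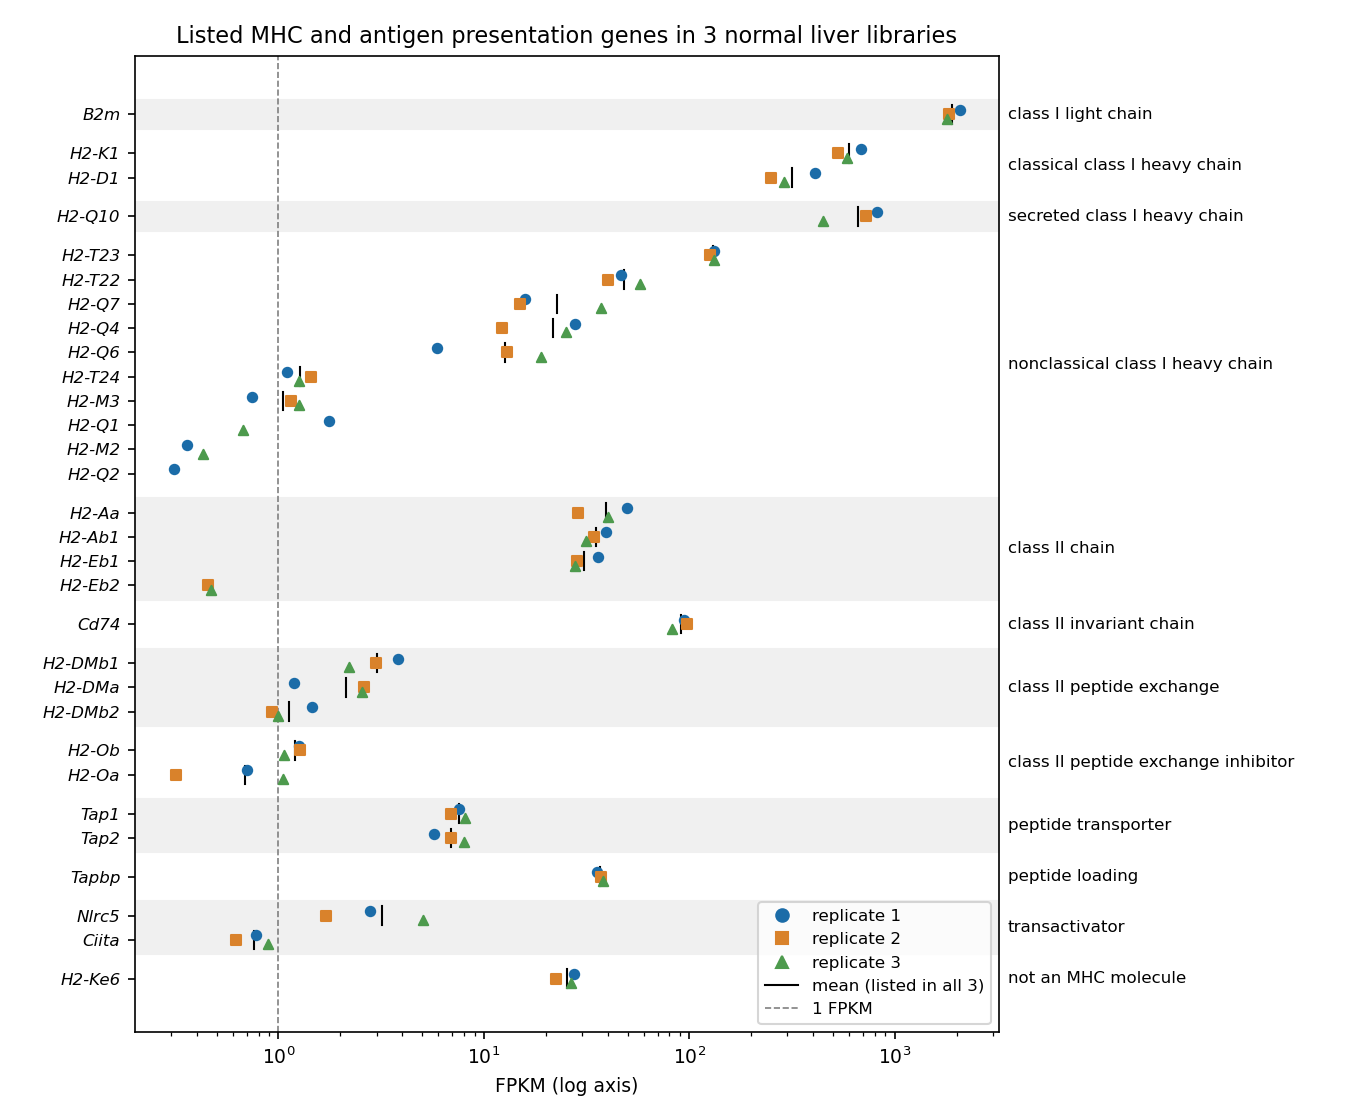
Level of the 30 listed genes in FPKM on a log axis, grouped by role, with 1 point per library and a black bar at the mean for genes listed in all 3. B2m and the heavy chains H2-K1, H2-D1 and H2-Q10 lie above 200 FPKM, the class II chains H2-Aa, H2-Ab1 and H2-Eb1 between 27.7 and 49.6, and Ciita below 1.

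H2-Q10 (ENSMUSG00000067235, chr17:35470089-35474563) encodes a class I heavy chain that is secreted into serum and known as a product of liver. Its level was 818, 727 and 447 FPKM in replicates 1, 2 and 3 (664 ± 193, n = 3), rank 54. Replicate 3 was far below the other 2, whereas H2-K1 was lowest in replicate 2. H2-Q10 was above H2-K1 in replicates 1 and 2, with ratios of 1.20 and 1.37, and below it in replicate 3, at 0.77, so the order of these genes was not the same in all libraries. Exon 5 of class I genes encodes the connecting peptide and the membrane-spanning segment, and its coding bases, read from GENCODE M21 transcripts, are shown because H2-Q10 differs from the classical genes there.
H2-Q10 exon 5, 80 coding bases: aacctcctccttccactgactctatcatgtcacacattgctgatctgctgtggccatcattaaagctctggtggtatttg
H2-K1 exon 5, 120 coding bases: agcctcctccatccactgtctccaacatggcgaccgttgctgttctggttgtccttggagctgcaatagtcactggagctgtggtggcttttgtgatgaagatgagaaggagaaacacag
H2-D1 exon 5, 117 coding bases: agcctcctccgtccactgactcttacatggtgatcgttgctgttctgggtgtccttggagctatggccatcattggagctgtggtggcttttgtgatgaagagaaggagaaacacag
In H2-Q10 the exon is 104 bases long, not a multiple of 3, and its reading frame ends after 80 of them, whereas H2-K1 has 120 and H2-D1 has 117 bases, all coding. In a global alignment the H2-Q10 bases were identical to H2-K1 at 53.7% of columns and to H2-D1 at 56.8%, against 85.0% between H2-K1 and H2-D1.

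H2-Q10 made up 38.1%, 42.4% and 28.1% of the summed FPKM of all class I heavy chain genes in replicates 1, 2 and 3. B2m over that sum was 0.96, 1.06 and 1.12 (1.05 ± 0.08). Without H2-Q10 the ratio was 1.56, 1.85 and 1.56 (1.65 ± 0.17). Among these genes the summed heavy chains were nearer to B2m in FPKM with the secreted chain counted in than without it. Class I-like genes without an H2 symbol and the pseudogene H2-Q5 were not in this sum, and the ratio depends on the genes counted.

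**Figure D2:**
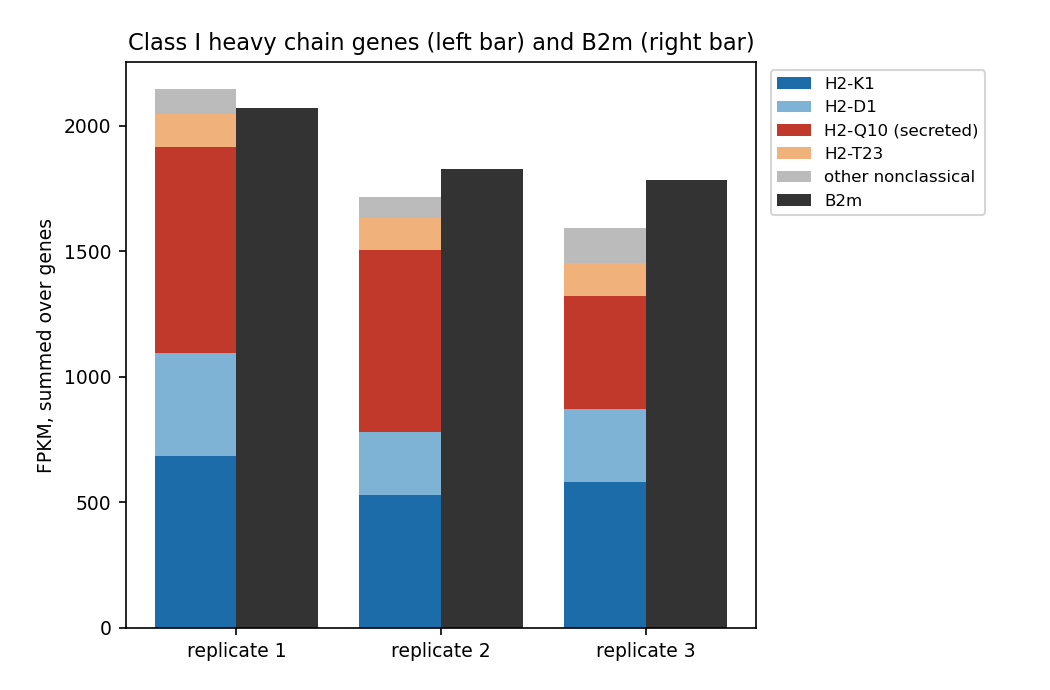
Summed FPKM of the class I heavy chain genes, stacked by gene (left bar), and FPKM of B2m (right bar) in each library. The bars are of nearly equal height in each library, and the H2-Q10 part is smallest in replicate 3, at 447 FPKM.

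The H2-Q10 first exon of 780, 695 and 405 FPKM carried most of its level, and a longer first exon that runs through introns 1 to 3 carried 38.5, 31.7 and 42.4 FPKM. The share of this longer form was 4.70%, 4.36% and 9.47%, highest in replicate 3, where the main form was lowest. A last exon was listed in replicate 3 only, at 403 FPKM, and it lies downstream of the annotated gene, at chr17:35476973-35477084. No last exon of H2-Q10 was listed for replicates 1 and 2.

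The nonclassical class I genes of the H2-Q, H2-T and H2-M regions have more specialised roles. Of these 21 genes 10 had a value, beside 12091 of all 21951 protein-coding genes. H2-T23, whose product Qa-1 presents leader peptides of other class I chains to the receptor CD94/NKG2A, was the steadiest, at 132, 126 and 132 FPKM (130 ± 3.45, n = 3). H2-T22, whose product is recognised by some gamma delta T cells, had 46.5, 40.0 and 57.6 FPKM (48.0 ± 8.87). Both were listed in every library, and H2-T23 varied the least in FPKM relative to its mean among these 10.

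In replicates 1 and 3 the listed events tied part of the H2-T22 level to a start in another gene. First exons of H2-T22 itself carried 13.2, 34.7 and 18.4 FPKM. A 30-base first exon inside H2-T10, a polymorphic pseudogene, carried 28.1 FPKM in replicate 1 and 32.6 in replicate 3 and was not listed in replicate 2. In replicates 1 and 3 an event of the same FPKM joined it directly to the H2-T22 exon. Of the 100-base windows in H2-T22 transcripts, 12.4% also occur in another gene and 8.57% in H2-T10, and the part of this shared sequence in the result was not tested.

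On the log2(FPKM + 1) scale, H2-Q6, H2-Q7 and H2-Q4 had the largest SDs of the 24 genes at 1 FPKM or more. H2-Q7, a Qa-2 heavy chain, had 15.9, 15.0 and 37.1 FPKM from its first exons (22.7 ± 12.5), highest in replicate 3. Its internal events were not used for this level, because its assembled locus also held H2-Q5, and the 276-base exon 3 of H2-Q7 was at 29.1, 24.2 and 31.2 FPKM. First and last exons under the H2-Q7 identifier gave a mean log2(FPKM + 1) of 5.07 ± 0.37, against 4.44 ± 0.70 from its own first exons. That identifier also covered the H2-Q5 first exon in the same locus, so the level and spread of H2-Q7 depend on the exons counted. H2-Q6, also a Qa-2 chain, had 5.92, 12.9 and 19.0 FPKM (12.6 ± 6.55), also highest in replicate 3. These are first exon values. Its last exon was not listed in replicate 1 and had 8.13 and 10.2 FPKM in replicates 2 and 3. From last exons only the mean log2(FPKM + 1) of H2-Q6 was 2.22 ± 1.93, against 3.64 ± 0.78. H2-Q4 (Qb-1) had 27.9, 12.2 and 24.9 FPKM (21.7 ± 8.33), lowest in replicate 2. The assembled locus of H2-Q7 also held a first exon of the polymorphic pseudogene H2-Q5, at 15.1, 10.8 and 6.16 FPKM, which was 48.7%, 41.9% and 14.2% of all first exon FPKM there. H2-Q7 was the class I gene with the largest share of 100-base windows in common with other genes, 17.2%, of which 9.34% with H2-Q6. The share was 12.4% for H2-Q1, 10.8% for H2-Q6, 7.28% for H2-T23, 4.09% for H2-D1, 2.66% for H2-Q4, 1.93% for H2-Q10 and 0 for H2-K1, and reads in shared windows could be split between copies, so values of H2-Q1, H2-Q6, H2-Q7, H2-T22 and H2-T23 are uncertain.

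The remaining nonclassical genes were near or under 1 FPKM. H2-T24 had 1.09, 1.44 and 1.26 FPKM, and H2-M3, which presents N-formylated peptides of bacteria and mitochondria, had 0.74, 1.15 and 1.26 FPKM. H2-Q1, H2-Q2 and H2-M2 had means under 1 FPKM and were each missing from at least 1 library, with single values up to 1.76 FPKM for H2-Q1. Of the 12 H2-M genes only H2-M3 and H2-M2 had a value. Over all protein-coding genes 19.9% of those with 1 annotated transcript and 64.1% of those with several had a value.

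Of the 4 class II chain genes, H2-Aa, H2-Ab1 and H2-Eb1 were at similar levels and H2-Eb2 was far lower. H2-Aa, the alpha chain of I-A (ENSMUSG00000036594, chr17:34282744-34287823, minus strand), had 49.6, 28.7 and 40.1 FPKM (39.4 ± 10.5, n = 3). Its partner, the beta chain H2-Ab1 (ENSMUSG00000073421, chr17:34257689-34269419), had 39.2, 34.3 and 31.3 FPKM (34.9 ± 3.96). The difference H2-Aa minus H2-Ab1 was 0.33, -0.25 and 0.35 on the log2(FPKM + 1) scale (0.14 ± 0.34), smaller than its spread and of changing sign.

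H2-Eb1, the beta chain of I-E, had 36.0, 28.5 and 27.7 FPKM (30.7 ± 4.56). Its alpha chain gene is inactive in this strain, annotated as the polymorphic pseudogene H2-Ea-ps, and it was listed in none of the 3 libraries. H2-Eb2 was missing in replicate 1 and had 0.46 and 0.47 FPKM in replicates 2 and 3. All 3 main chains were highest in replicate 1. Summed class I heavy chains without H2-Q10 were 10.6, 10.8 and 11.5 times the summed class II chains (11.0 ± 0.47), a ratio with less spread relative to its mean than H2-K1 or H2-Aa.

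Cd74 encodes the invariant chain, which fills the groove of new class II molecules and guides them to endosomes (ENSMUSG00000024610, chr18:60803848-60812652). It had 93.8, 97.4 and 82.7 FPKM (91.3 ± 7.66), the highest class II gene in each library. Relative to H2-Aa it was 1.89, 3.40 and 2.06 times as high, and the ratio was highest in replicate 2, where H2-Aa was lowest. A 192-base exon, exon 7 of the longer annotated transcript, was included in 25.4%, 27.8% and 23.2% of its transcripts by FPKM (25.5% ± 2.32). That exon adds the thyroglobulin-type domain that separates the p41 from the p31 form of the protein, and p31 was the main form in every library.

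Peptide exchange on class II molecules needs H2-DM, which removes the remnant of the invariant chain, and H2-DO inhibits it. H2-DMb1 had 3.83, 2.97 and 2.20 FPKM (SD 0.81, n = 3), and H2-DMb2 had 1.46, 0.93 and 1.00 (1.13 ± 0.28). These beta chain copies had 13.7% and 10.3% of their 100-base windows in common with each other, and by these levels both were highest in replicate 1. For H2-DMb1 this came from its last exon, whereas its first exon, at 2.59, 2.97 and 2.20 FPKM, was highest in replicate 2. Both copies lay in the same assembled locus, and no last exon was listed for H2-DMb2. H2-DMa, the alpha chain, was lowest in replicate 1, with 1.19, 2.62 and 2.56 FPKM (2.12 ± 0.81). Of the DO chains, H2-Ob had 1.27, 1.28 and 1.06 FPKM, and H2-Oa had 0.70, 0.32 and 1.05 FPKM, a mean of 0.69.

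Tap1 and Tap2 form the peptide transporter. Tap1 had 7.60, 6.87 and 8.10 FPKM (7.53 ± 0.62, n = 3) and Tap2 had 5.71, 6.89 and 8.04 (6.88 ± 1.17). Tap1 minus Tap2 was 0.36, -0.0024 and 0.010 on the log2(FPKM + 1) scale (0.12 ± 0.20), within its spread. From last exons alone the sign of this difference turned, to -2.96, because almost no last exon FPKM was listed for Tap1. Tapbp, which encodes tapasin, had 35.6, 37.0 and 37.8 FPKM (36.8 ± 1.13). It was above both transporter genes in every library. This level came from its first exons in replicate 1 and from its last exon in replicates 2 and 3. The main first exon of Tapbp was at 35.4, 17.1 and 16.6 FPKM. From first exons only the mean log2(FPKM + 1) of Tapbp was 4.54 ± 0.57, against 5.24 ± 0.04, so its steadiness depends on the events counted.

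Nlrc5 is the transactivator of class I genes and Ciita that of class II genes. Nlrc5 (ENSMUSG00000074151, chr8:94434356-94527272) had 2.79, 1.70 and 5.08 FPKM (3.19 ± 1.72), with replicate 3 highest and replicate 2 lowest. Ciita (ENSMUSG00000022504, chr16:10480059-10528418) had 0.77, 0.62 and 0.89 FPKM (0.76 ± 0.13), all under 1. Nlrc5 minus Ciita was 1.10, 0.73 and 1.68 on the log2(FPKM + 1) scale (1.17 ± 0.48), above 0 in 3 of 3 libraries and larger than its spread. Both transactivators lay below B2m, H2-K1, H2-D1 and the main class II chains in every library.

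Nlrc5 transcripts mostly began inside the gene. A first exon 38407 bases downstream of the annotated gene start carried 2.38, 1.07 and 2.46 FPKM, or 85.2%, 73.8% and 68.3% of all first exon FPKM of Nlrc5. The annotated gene start carried 5.34%, 6.62% and 9.47%. Tap1 had its main first exon at the gene start, with 94.2%, 75.1% and 87.4%, and a first exon 2338 bases downstream took 4.54%, 22.3% and 11.1%, most in replicate 2.

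**Figure D3:**
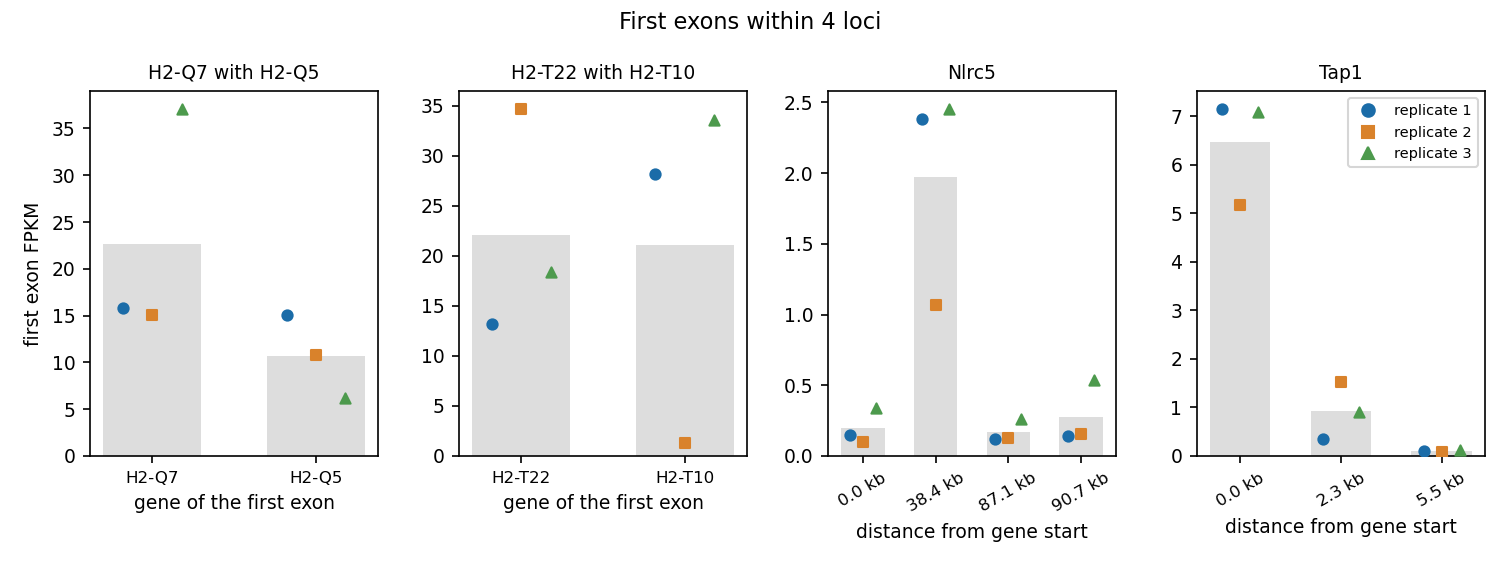
First exon FPKM in 4 loci, with 1 point per library and a grey bar at the mean of the 3. In the H2-T22 locus the H2-T10 start is high in replicates 1 and 3 and at 1.31 FPKM in replicate 2, and in Nlrc5 the start 38407 bases inside the gene is the highest in every library.

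H2-Ke6 carries an H2 symbol from its place in the MHC, but its product is a hydroxysteroid dehydrogenase and no MHC molecule. It had 27.4, 22.4 and 26.6 FPKM (25.5 ± 2.68), listed under Slc39a7, the next gene. Of its 100-base windows, 42.8% also occur in Gm20427, so reads could be split between them.

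Alternative exons of the MHC genes kept similar shares in some genes and shifted between libraries in others. In H2-K1 an exon 2 with 60 more bases, 330 against 270, took 1.74%, 2.12% and 2.04% (1.97% ± 0.20). H2-T23 retained a 540-base intron in 9.64%, 8.92% and 8.52% (9.03% ± 0.57), and H2-T22 included a 105-base exon in 97.4%, 97.4% and 98.3% (97.7% ± 0.52). These 3 shares varied little.

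Larger differences between libraries were seen in other members. The 33-base exon 6 of H2-D1 carried 319, 250 and 290 FPKM, which was 77.9% of the main first exon in replicate 1 and 100% in replicates 2 and 3. In H2-Q7, exons 4 and 5 encode the alpha 3 domain and the part that attaches the chain to the membrane. They were included as a block in 51.3%, 60.2% and 48.1% of the FPKM of both forms (53.2% ± 6.28). Forms with the block had 14.9, 14.6 and 15.0 FPKM and those without it 14.2, 9.64 and 16.2. The same assembled locus held the H2-Q5 first exon, at 15.1, 10.8 and 6.16 FPKM. Transcripts starting in H2-Q5 could be counted in either form, and their part in this share was not tested. With exon 4 kept, exon 5 of H2-Q7 was skipped in 0.24%, 0.0019% and 25.4% in replicates 1, 2 and 3. In replicate 3 the 5.10 FPKM of skipping forms was nearly all from the form that also retained the 2082-base intron before exon 4, a form with no FPKM in replicates 1 and 2.

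A 33-base exon of H2-Q4 was included in 33.7% in replicate 1 and 35.0% in replicate 3 and was fully skipped in replicate 2. A 33-base exon of H2-Q6 was included in 80.1% in replicate 2 and 94.6% in replicate 3, with neither form listed in replicate 1. H2-Q4 kept a 187-base intron in 42.4%, 13.2% and 40.0%, and Tap2 a 162-base intron in 28.1%, 58.0% and 23.1%. Replicate 2 thus stood apart in H2-Q4 and Tap2, in opposite directions for the retained intron.

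**Figure D4:**
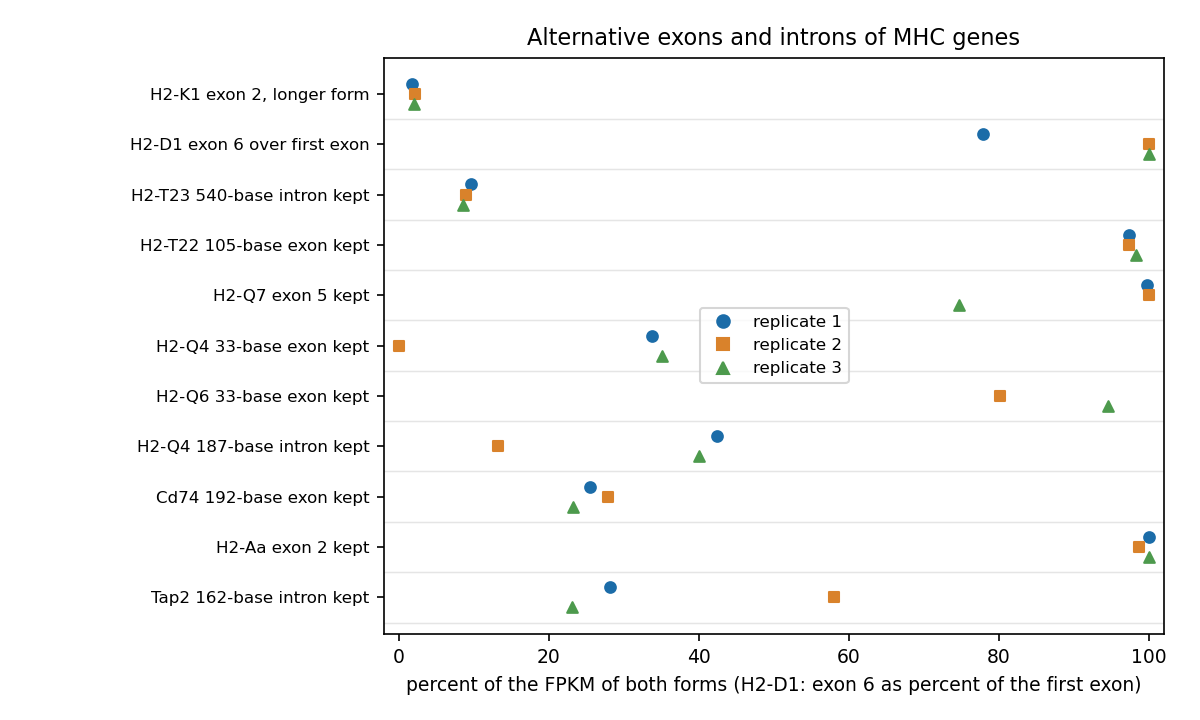
Percent of the FPKM of both forms taken by the named exon or intron form, with 1 point per library. For H2-D1 the point is exon 6 as percent of the main first exon. H2-K1, H2-T23, H2-T22 and Cd74 keep their points close together, whereas H2-Q4 and Tap2 have replicate 2 apart from the others.

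Genes acting before and beside these members were taken from lists of the pathway, chosen with earlier results of these data known. All 5 genes of the immunoproteasome and its PA28 activator had a mean of at least 1 FPKM. Psme1 and Psme2, the PA28 subunits, had 46.1, 32.1 and 34.6 FPKM and 33.5, 23.9 and 11.5 FPKM. Psmb10, a catalytic subunit, had 27.6, 7.99 and 19.4 FPKM. The summed level of the 5 genes was 139, 87.7 and 91.2 FPKM, highest in replicate 1, as were B2m, H2-K1 and H2-D1. By the levels above, Tap1, Tap2, Tapbp and Nlrc5 were highest in replicate 3 instead.

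All 10 peptide loading and trimming genes reached 1 FPKM, with the chaperone genes Calr at 176 ± 20.7, Hspa5 at 157 ± 21.8 and Pdia3 at 126 ± 17.4 FPKM on top. Of 8 class II processing genes 6 did, led by the lysosomal proteases Ctsl at 162 ± 15.9, Ctsz at 131 ± 22.3 and Ctsb at 123 ± 4.21 FPKM, with Ifi30 and March1 under 1. All 7 promoter-binding regulators of MHC genes did, led by the NF-Y subunits Nfyb at 18.9 ± 4.73 and Nfyc at 7.77 ± 0.80 FPKM and by Rfxap of the RFX complex at 3.67 ± 0.31. Of 9 interferon gamma signalling genes 7 had a value and all 7 reached 1 FPKM. Irf2 was at 16.2 ± 1.68, Irf1 at 14.9 ± 1.55 and Jak1 at 11.1 ± 2.54 FPKM, and Irf8 and Socs1 were not listed.

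Among 8 class I-like genes with other names, 7 reached 1 FPKM. Azgp1, which encodes a secreted zinc-binding class I-like protein, had 661, 636 and 664 FPKM, near the level of H2-Q10. Cd1d1, which presents lipids to NKT cells, had 138, 147 and 119 FPKM, near H2-T23. Fcgrt, the neonatal Fc receptor heavy chain, had 79.9, 98.1 and 80.4 FPKM. Azgp1 and Fcgrt varied less among libraries than H2-Q10.

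Markers of the cells that make class II molecules were listed at low to moderate levels. Of 9 Kupffer cell markers 8 reached 1 FPKM, beside 42.1% of all protein-coding genes, with a sum of 90.8, 143 and 133 FPKM. All 6 sinusoidal endothelial markers did, with a sum of 54.3, 63.8 and 58.1 FPKM. Both sums were lowest in replicate 1, where H2-Aa, H2-Ab1 and H2-Eb1 were highest. Among the endothelial markers Clec4g, Fcgr2b and Kdr were lowest in replicate 1. Stab1 and Lyve1 were highest there, and Stab2 was lowest in replicate 3.

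Of 5 B cell markers 3 reached 1 FPKM, with a sum of 41.5, 28.7 and 43.1 FPKM, most of it Ighm. Of 8 dendritic cell markers only Clec9a did, with a sum of 3.08, 2.24 and 2.81 FPKM, and Xcr1 and Siglech were not listed. The T and NK cell sum was 4.78, 4.47 and 5.52 FPKM, with 2 of 6 markers at 1 FPKM, and the cholangiocyte sum was 3.69, 2.39 and 2.16 FPKM, with 1 of 4. The B cell sum followed Ighm. Cd79a, a part of the B cell receptor, was highest in replicate 2, with 1.498, 3.21 and 2.42 FPKM. Another B cell marker, Cd79b, was highest in replicate 1, with 2.40, 2.15 and 2.01 FPKM. H2-Aa was lowest in replicate 2, H2-Ab1 and H2-Eb1 were lowest in replicate 3, and Cd74 was highest in replicate 2. The part of these cells in the class II levels was not tested.

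As a group the 30 listed members lay at a median log2(FPKM + 1) of 3.36, beside 2.23 over all 12091 protein-coding genes with a value. The 24 members at 1 FPKM or more had a median SD of 0.20 on that scale, beside 0.21 over the 9249 genes at that level. Replicate 1 was the highest library for 12 of the 24, replicate 2 for 4 and replicate 3 for 8. Over all 9249 genes the shares were 35.3%, 33.0% and 31.7%. Replicate 2 was the lowest library for 11 of the 24 members, or 45.8%, beside 30.6% of all 9249 protein-coding genes at 1 FPKM or more.

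**Figure D5:**
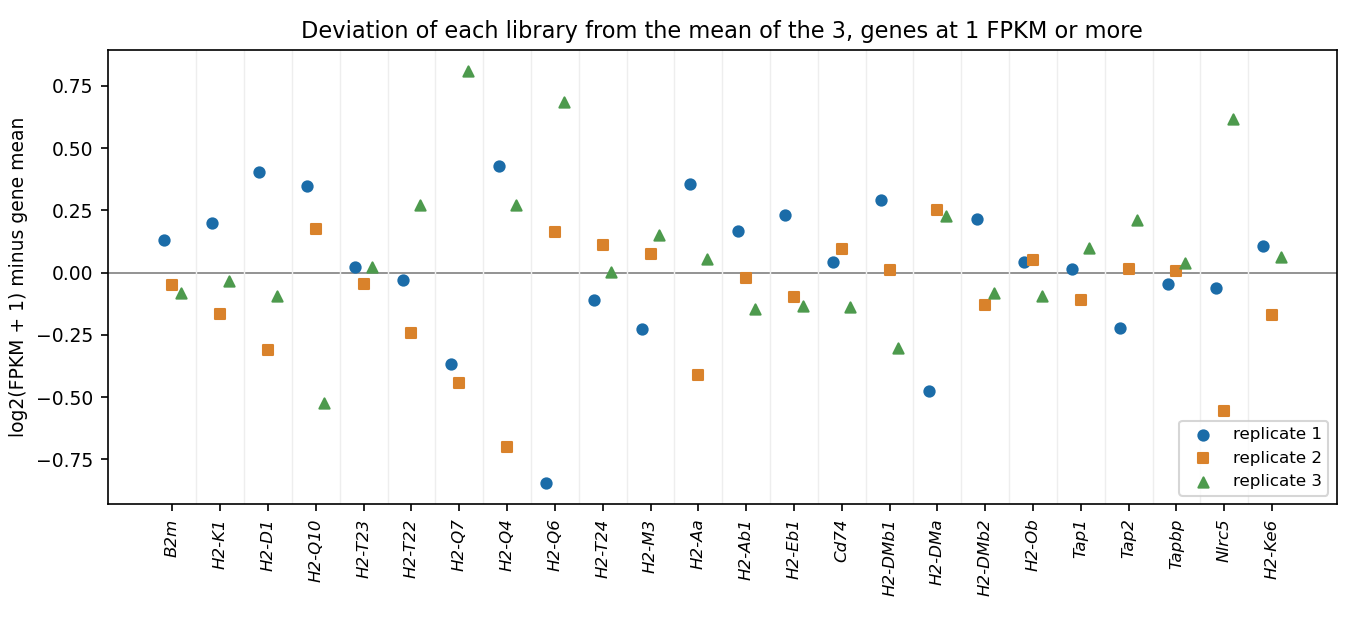
Deviation of each library from the mean of the 3 on the log2(FPKM + 1) scale, for the 24 genes at 1 FPKM or more. H2-Q6, H2-Q7, H2-Q4 and Nlrc5 spread widest, and H2-T23 and Tapbp lie closest to 0.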

How the data were processed

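The data were 3 RNA sequencing libraries of normal mouse liver. Per the submitters' processing notes, the tools were HISAT2 2.0.1, cutadapt 1.9.1, DESeq2 and HTSeq 0.6.1 and the build was mm9; no roles are given, and what made the tables is not stated. The values are FPKM per event, deposited by the authors, per the file headers. Of the first exons, 82.0% to 82.7% matched GENCODE M21 (GRCm38) exactly and at most 0.00564% after a shift of 1000 bases, so positions were read as GRCm38.

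Identical rows, 1440 to 1519 in each library, were dropped. First and last exons were given to genes by exact position, then splice site, then identifier (3.53% to 4.19% of ends); at most 1.63% were not placed. Shares compare the FPKM of both forms of an event. Shared sequence was counted in 100-base windows of GENCODE transcripts.

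Members at 1 FPKM or more are named with every library's value; of other lists, the 3 highest genes and marker genes not listed. Some further genes of these lists were named after their values were seen. Members, lists and the definition of a gene value were chosen with earlier results of these data known. The letters of the enhancer A pattern were shortened after promoters had been searched with a longer pattern. With 1 group no test was made. The gene value was checked on simulated data. Computations used Python 3.11.15, numpy 2.4.6, pandas 2.3.3 and matplotlib 3.10.9. Sequences of Cd74 are not reported here.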

Additional observations from a re-analysis of the deposited data

How the results depend on the processing

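No paired analysis was possible because the libraries form 1 group. The count of 24 genes at 1 FPKM or more became 18 from last exons only. It became 19 from first and last exons under the gene's own identifier, and ranged from 23 to 25 when 1 library was left out. With a minimum of 0.1 FPKM or with none it became 30. The median level of 3.36 was 2.22 from last exons only and 4.58 over the 24 genes alone, by construction, and ranged from 3.17 to 4.06 when 1 library was left out. Without replicate 1 it was 4.06, the value of H2-Q6 in that setting, and 29 genes had a value.

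Tap1 minus Tap2 turned to -2.96 from last exons only, since Tap1 had almost no listed last exon FPKM, and ranged from 0.0038 to 0.18 when 1 library was left out. Nlrc5 minus Ciita was 1.81 with a pseudocount of 0.1 FPKM and 0.91 to 1.39 when 1 library was left out. H2-K1 minus H2-D1 ranged from 0.87 to 1.04 and H2-Aa minus H2-Ab1 from 0.04 to 0.34. H2-K1 minus H2-D1 gave no value from last exons only or from own identifiers, because H2-D1 was not listed there. Of the 30 listed genes, from last exons only 6 moved by more than their spread and 5 had no value; from first exons only 3 moved (Tapbp, H2-T22 and Ciita); from own identifiers 1 moved and 6 had no value. Scaling the libraries to the same summed FPKM or keeping identical rows moved none.

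Depth is unknown, and genes under 1 FPKM are the least certain. An unlisted event is no sign of absence. Reads in windows shared with a near-identical copy limit the values of H2-Q1, H2-Q6, H2-Q7, H2-T22, H2-T23, H2-DMb1, H2-DMb2 and H2-Ke6.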
